A study of Mus musculus with 12 samples.

Results

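Prrx1, Cdh11 and Alx1 are 3 genes best known from embryonic mesenchyme, and their transcripts were followed in mouse endothelial cells treated with BMP6. They are 3 of the 8267 genes that could be named on the array, each measured by 1 probe on 12 arrays. The 3 were chosen by their measured differences from control in these same arrays, so their values against control are given as a description, without a test. The cells were MECs, a line of intraembryonic mouse endothelial cells, given BMP6 for 4, 12 or 24 h, or mock-treated as controls. Each of the 4 groups held 3 independent replicates, numbered 1 to 3 in every group. No time is labelled for the controls and no dose for BMP6. RNA of the cells (Cy5) was hybridised with a universal mouse reference RNA (Cy3), so a value is the log2 ratio of cells over reference. Neither the base of the logarithm nor the direction of the ratio is stated: with the opposite direction every rise and fall below, and the sign of every level, would turn.

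Prrx1 and Alx1 encode paired-class homeodomain transcription factors, which bind DNA through a homeodomain and pattern the mesenchyme of the limb buds and the face during development. Cdh11 encodes cadherin-11, a calcium-dependent adhesion molecule through which mesenchymal cells and osteoblasts bind one another. BMP6 is a secreted ligand of the TGF-beta superfamily that signals through serine/threonine kinase receptors and SMAD proteins, and ligands of this superfamily are known for driving transitions between endothelial and mesenchymal states.

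The 3 genes lie on different chromosomes of GRCm38.p6: Prrx1 on chromosome 1 from 163245119 to 163315145, Cdh11 on chromosome 8 from 102632095 to 102785493, and Alx1 on chromosome 10 from 103007847 to 103029549. All 3 are protein-coding. RefSeq's promoter table held an entry for 1 of the 3, Prrx1. Its 250 bases before the annotated start, on the minus strand at chr1:163313651-163313900 and inside the gene's annotated extent, are shown because Prrx1 was lower at both earlier times, with capitals marking each TAAT, the core that paired-class homeodomain proteins recognise.
Prrx1: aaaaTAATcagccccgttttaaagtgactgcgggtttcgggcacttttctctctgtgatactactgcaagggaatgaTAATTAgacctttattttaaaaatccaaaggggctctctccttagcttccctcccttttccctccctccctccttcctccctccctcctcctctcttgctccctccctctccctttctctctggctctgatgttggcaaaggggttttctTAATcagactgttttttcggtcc
TAAT, read on both strands, occurred 4 times, of which 2 overlap in the run TAATTA, and 54.9% of the table's 32851 promoter stretches of this length hold it. The SMAD core GTCT occurred 2 times (82.9% of stretches hold it). The GC-rich SMAD element GGCGCC and the E-box CANNTG, the general letters for SNAI and TWIST binding, had 0 matches in this window. Of all stretches 9.59% and 66.2% hold them. The narrower SNAI-type E-box CAGGTG also had 0 matches, and 17.2% of stretches hold it. These are matches of letters only, and binding was not measured.

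Prrx1 was lower at 4 and 12 h of BMP6 and lay near the control values again at 24 h. Its log2 ratio was 0.31, 0.03 and 0.06 at 4 h in replicates 1 to 3, against 0.87, 0.65 and 0.36 in controls. At 12 h it was 0.18, 0.03 and 0.18, and at 24 h it was 0.70, 0.41 and 0.38. All 3 arrays of 4 h and all 3 of 12 h lay below the lowest control array, whereas the 24 h arrays overlapped with the controls.

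The mean of Prrx1 was 0.13 ± 0.15 at 4 h and 0.13 ± 0.09 at 12 h, against 0.63 ± 0.26 in controls (SD, n = 3 each). The log2 change was -0.49 at 4 h, 1.41-fold lower (SE 0.133, or 0.083 with the replicate number as a block), and -0.50 at 12 h with the same errors. The same-numbered arrays differed by -0.56, -0.62 and -0.30 at 4 h and by -0.69, -0.61 and -0.18 at 12 h. At 24 h the mean was 0.50 ± 0.18 and the change -0.13, with 2 of 3 pairs lower. Each pair was higher at 24 h than at 4 h by a similar amount, 0.39, 0.38 and 0.32. Ordered from high to low, the groups ran control, 24 h, 4 h and 12 h. Control and 24 h overlapped, 24 h and 4 h did not, and 4 h and 12 h differed by 0.002, less than the SD of either group.

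Cdh11 was lowest at 4 h, stood between at 12 h and was slightly above control at 24 h. Its log2 ratio was -0.03, -0.78 and -0.72 at 4 h, against 0.20, -0.40 and 0.004 in controls. At 12 h it was 0.04, -0.48 and -0.14, and at 24 h it was 0.27, -0.14 and 0.19. Replicate 1 was the highest array in every group, and each BMP6 group overlapped with the controls when the numbers were ignored.

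Within same-numbered arrays the direction of Cdh11 was the same in all 3 pairs at each time. The pairs differed by -0.23, -0.38 and -0.73 at 4 h, by -0.16, -0.08 and -0.14 at 12 h, and by 0.07, 0.27 and 0.18 at 24 h. The mean was -0.51 ± 0.42 at 4 h, against -0.07 ± 0.31 in controls (SD, n = 3 each), a log2 change of -0.45 or 1.36-fold lower (SE 0.218, 0.096 with the block). The change was -0.12 at 12 h and 0.17 at 24 h. The pairs were higher at 24 h than at 4 h by 0.30, 0.64 and 0.91, a mean of 0.62 or 1.53-fold. Ordered from high to low the groups ran 24 h, control, 12 h and 4 h, and every pair of neighbours in that order overlapped.

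Alx1 had a different course, with scattered values at 4 h and its lowest ones at 24 h. Its log2 ratio was -1.21, -1.65 and -1.54 at 24 h, against -0.37, -0.80 and -0.52 in controls. At 12 h it was -0.97, -0.79 and -1.06. At 4 h it was -1.20 in replicate 1 and -0.28 in both other replicates, so that 1 array lay below all controls and 2 above them. The 24 h arrays all lay below every control and every 12 h array.

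The mean of Alx1 was -1.46 ± 0.23 at 24 h, against -0.56 ± 0.22 in controls (SD, n = 3 each). The log2 change was -0.90, 1.87-fold lower (SE 0.223, 0.229 with the block), and the pairs differed by -0.84, -0.85 and -1.02. At 12 h the change was -0.38, with pairs at -0.60, 0.01 and -0.54. At 4 h it was -0.03, with pairs at -0.83, 0.52 and 0.23, a spread of 0.71 (SD) between pairs. Without 4 h replicate 1, and without pairing, the 4 h change was 0.28, on the other side of control. Ordered from high to low the groups ran control, 4 h, 12 h and 24 h. Control overlapped with 4 h and 4 h with 12 h, while 12 h and 24 h did not overlap. In all 3 genes, fewer expressing cells and less RNA per cell cannot be told apart in these bulk samples.

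**Figure D1:**
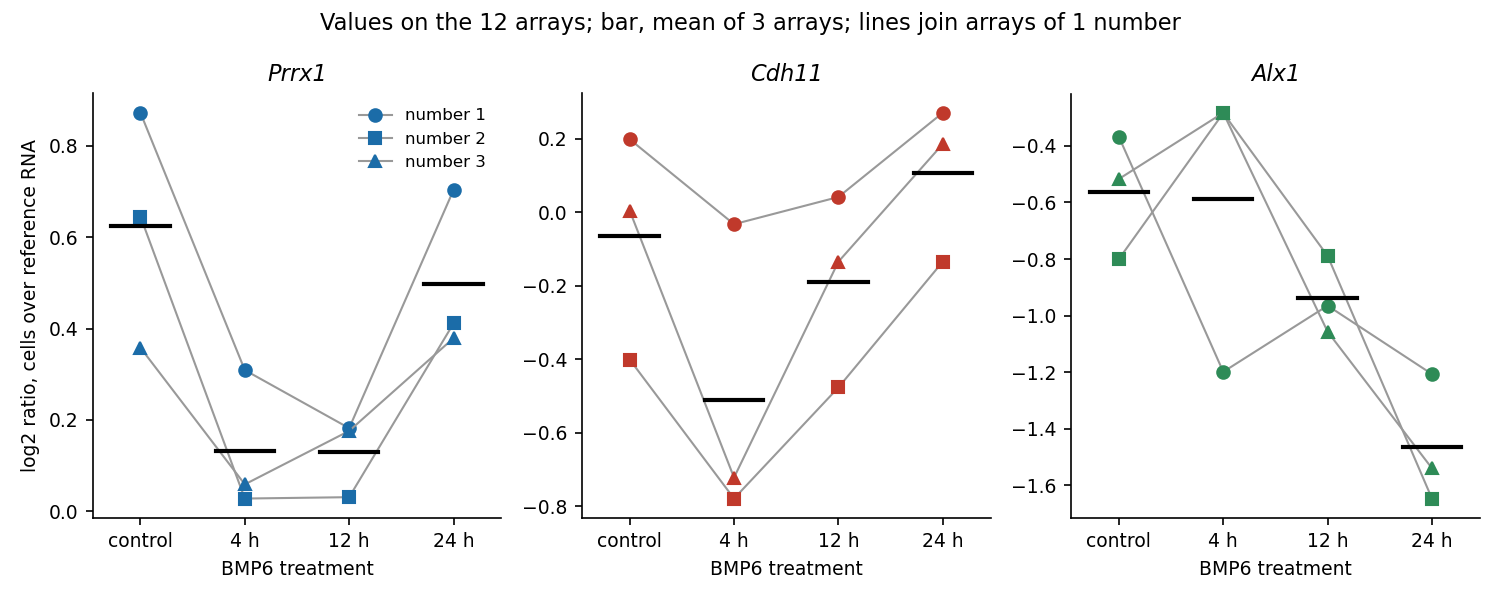
Log2 ratio of cells over reference RNA (vertical axes, a separate scale for each gene) on the 12 arrays by group (horizontal axes, evenly spaced), with points for arrays, lines joining arrays of 1 replicate number and black bars for the mean of 3. Prrx1 was lower at 4 and 12 h, Cdh11 was lowest at 4 h in all 3 lines, and Alx1 was lowest at 24 h.

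Set against all 8267 named genes, 43 genes had a more negative change than Prrx1 at 4 h, 32 at 12 h and 718 at 24 h. For Cdh11 these numbers were 51 at 4 h and 1095 at 12 h, and at 24 h 160 genes had a more positive change. For Alx1 they were 3491 at 4 h, 74 at 12 h and 0 at 24 h. Alx1 thus had the most negative mean change of all named genes at 24 h, and its place was between 1 and 3 over 14 alternatives (median centring, quantile normalization and each of the 12 arrays left out), with place 3 on leaving out control 3. These places describe the values on which the genes were chosen. The 3 comparisons share the same 3 control arrays.

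**Figure D2:**
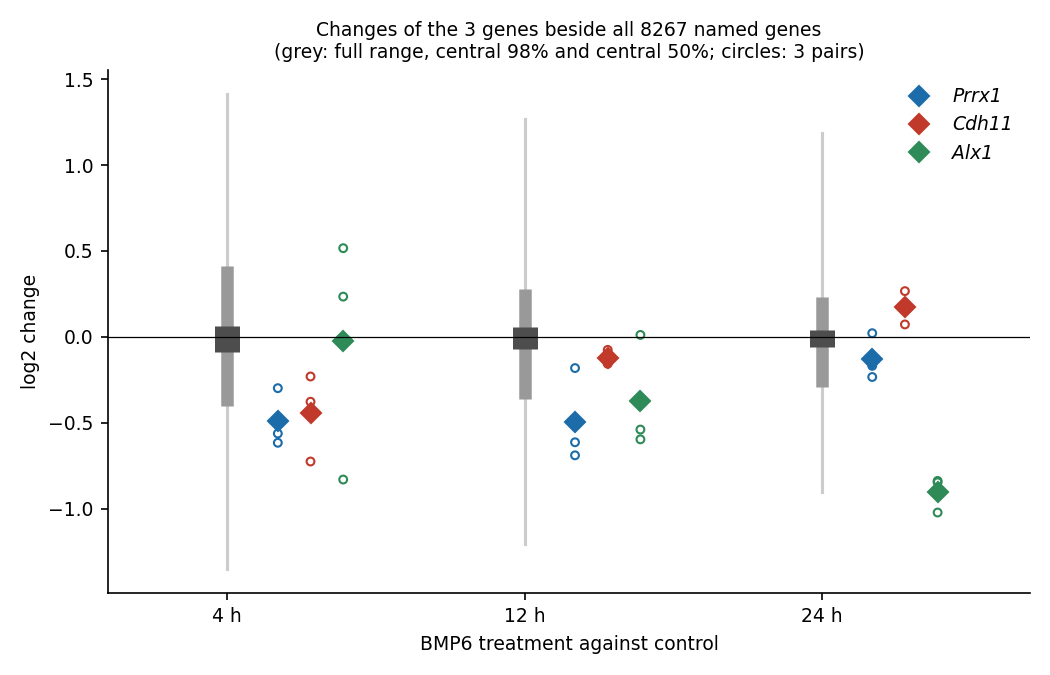
Log2 change against control (vertical axis) at 4, 12 and 24 h for Prrx1, Cdh11 and Alx1 (diamonds, means; circles, the 3 same-numbered pairs) beside the spread of all 8267 named genes (grey bars, full range, central 98% and central 50%). Alx1 sits at the lower end of all genes at 24 h with pairs from -0.84 to -1.02, while its pairs at 4 h run from -0.83 to 0.52.

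The 3 genes also differed in how far values followed the replicate number. For Alx1 the number held 0.63% of the sum of squares over the 12 arrays, the treatment group 66.6% and 32.7% was left. For Prrx1 the number held 21.1% and the group 69.2%, and for Cdh11 46.8% and 44.6%. The medians over all named genes were 51.2% for the number and 18.9% for the group. The 3 genes were chosen on their differences from control in these arrays, which favours high group shares. Their shares beside these medians are therefore a description only. After each number's mean was subtracted, Prrx1 and Cdh11 correlated with r = 0.62 over the 12 arrays, Prrx1 and Alx1 with r = -0.14, and Cdh11 and Alx1 with r = -0.68. These r values are a description, since arrays share groups and numbers.

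Genome-wide calls were made with limma at p under 0.05 after Benjamini-Hochberg adjustment across the 8267 genes, in a fit of the groups alone (unpaired) and in one with the replicate number as a block (paired). The paired fit called 6.02% of all genes at 4 h (188 higher, 310 lower), 1.89% at 12 h (39 higher, 117 lower) and 0.169% at 24 h (6 higher, 8 lower). The unpaired fit called 0.169% at 4 h, 0% at 12 h and 0% at 24 h. Unadjusted p-values under 0.05 were reached by 614, 393 and 166 of the 8267 genes at 4, 12 and 24 h in the unpaired fit. In the paired fit they were reached by 1763, 1277 and 656 genes. The methods' t-test called 0, 1 and 0 genes after adjustment. Calls of Prrx1, Cdh11 and Alx1 are not given, since the genes were chosen on these contrasts.

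Of the lists of related genes, 63 measured genes other than these 3 were tested: further paired-class homeobox genes, regulators of neural crest and skeletogenic mesenchyme, cadherins and catenins, fibroblast markers, transition regulators, and markers of endothelial, smooth muscle, epithelial and blood cells. With pairing, 5 rose and 1 fell at 4 h, where 6.02% of all genes were called and more of them fell than rose. At 12 h 3 rose and 2 fell, beside 1.89% of all genes, again with more lower than higher, and at 24 h 0 passed, beside 0.169%. In the unpaired fit 1 of the 63, Hmga2, passed at 4 h and 0 passed at 12 or 24 h. The median change of the 63 was 0.02 at 4 h, -0.01 at 12 h and -0.04 at 24 h, beside -0.01, -0.002 and -0.005 over all named genes. The lists were drawn up with earlier results of these data known.

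Of the 5 transition regulators 2 rose. Snai1, the zinc-finger repressor of cadherin-1, rose at 4 h with a log2 change of 0.79 (SE 0.103, paired adjusted p 0.00243, 3 of 3 pairs higher). Its arrays read 1.002, 0.88 and 0.93 at 4 h, against 0.08, -0.08 and 0.43 in controls. It rose by 0.63 at 12 h (paired adjusted p 0.0145) and stood at 0.40 at 24 h (0.285). Hmga2, an architectural chromatin protein, rose by 0.94 at 4 h (unpaired adjusted p 0.0282, paired 0.00313) and by 0.62 at 12 h (paired 0.047), and stood at 0.11 at 24 h. Its arrays read 0.71, 1.32 and 1.10 at 4 h, against 0.23, -0.04 and 0.12 in controls. The other 3 regulators did not pass, among them Snai2 at -0.10, -0.11 and 0.10 at 4, 12 and 24 h.

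Among 12 measured regulators of neural crest and skeletogenic mesenchyme, Dlx1, a homeobox factor of the branchial arches and forebrain, rose at 4 h by 0.38 (SE 0.063, paired adjusted p 0.00698) and at 12 h by 0.37 (0.0199). Its arrays read 0.44, 0.23 and 0.19 at 4 h, against -0.06, -0.13 and -0.09 in controls. The other 11 did not pass at any time, and Twist1, a basic helix-loop-helix factor of cranial mesenchyme, stood at -0.04, 0.03 and 0.02. Both measured paired-class genes other than Prrx1 and Alx1 did not pass, with a list median of 0.10 at 4 h and -0.06 at 24 h.

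Among 9 measured cadherins and catenins other than Cdh11, Jup, which encodes the junctional plaque protein plakoglobin, fell at 12 h, by 0.30 on the log2 scale (SE 0.043, paired adjusted p 0.00857). Its arrays read 0.24, 0.20 and 0.37 at 12 h, against 0.52, 0.57 and 0.62 in controls. The classical cadherins Cdh2, or N-cadherin, and Cdh5, the endothelial VE-cadherin, did not pass: Cdh2 stood at -0.20, -0.07 and 0.11 at 4, 12 and 24 h, and Cdh5 at -0.11 at each time. Cdh2 was lower in 3 of 3 pairs at 4 h (paired adjusted p 0.116).

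Of 17 measured fibroblast and mesenchyme markers, the fibrillar collagen gene Col3a1 fell at 4 h, by 0.24 on the log2 scale (SE 0.057, paired adjusted p 0.0363), and Col6a1, which encodes a chain of collagen VI, fell at 12 h, by 0.40 (SE 0.072, paired adjusted p 0.0245). The list's median change was 0.02 at 4 h, -0.01 at 12 h and -0.07 at 24 h, and at 24 h 14 of the 17 had a change below 0. So did 4349 of the 8267 named genes, 39 of the 63 list genes, 6 of 7 endothelial markers and 4 of 9 cadherins and catenins. Whether the lists differ in this was not tested. Of 6 smooth muscle and pericyte markers, Cnn1, the actin-binding protein calponin, rose at 4 h by 0.25 (SE 0.047, paired adjusted p 0.0135).

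Markers of the labelled cell type were checked as well. Of the 7 measured endothelial markers, 0 had a mean log2 ratio above 0 in controls, and the array medians of the list lay between -1.07 and -0.58 there. With the ratio turned, 7 of 7 would lie above 0, so whether these markers stood below or above the reference is not settled. Of the other lists, 9 of 17 fibroblast and mesenchyme markers and 3 of 6 smooth muscle and pericyte markers had control means above 0. So did 1 of 5 epithelial markers and 0 of 1 blood cell markers. The array medians of the epithelial list lay between -1.16 and -0.72 in controls, and those of the fibroblast list between -0.07 and 0.21. A ratio to a pooled reference does not show whether a transcript was detected. Flt1, a VEGF receptor, rose at 4 h by 0.23 (SE 0.055, paired adjusted p 0.0366). Kdr, the main VEGF signalling receptor, stood at 0.07, -0.18 and -0.12 at 4, 12 and 24 h, and the junctional adhesion molecule Pecam1 at -0.27, -0.02 and -0.38, with neither passing. Ptprc, the pan-leukocyte surface phosphatase and the single measured blood cell marker, had a log2 ratio from -1.63 to -0.94 at 24 h, against -0.78 to -0.73 in controls, with a change of -0.42 that did not pass. The part of these markers in the Alx1 values at 24 h was not tested.

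**Figure D3:**
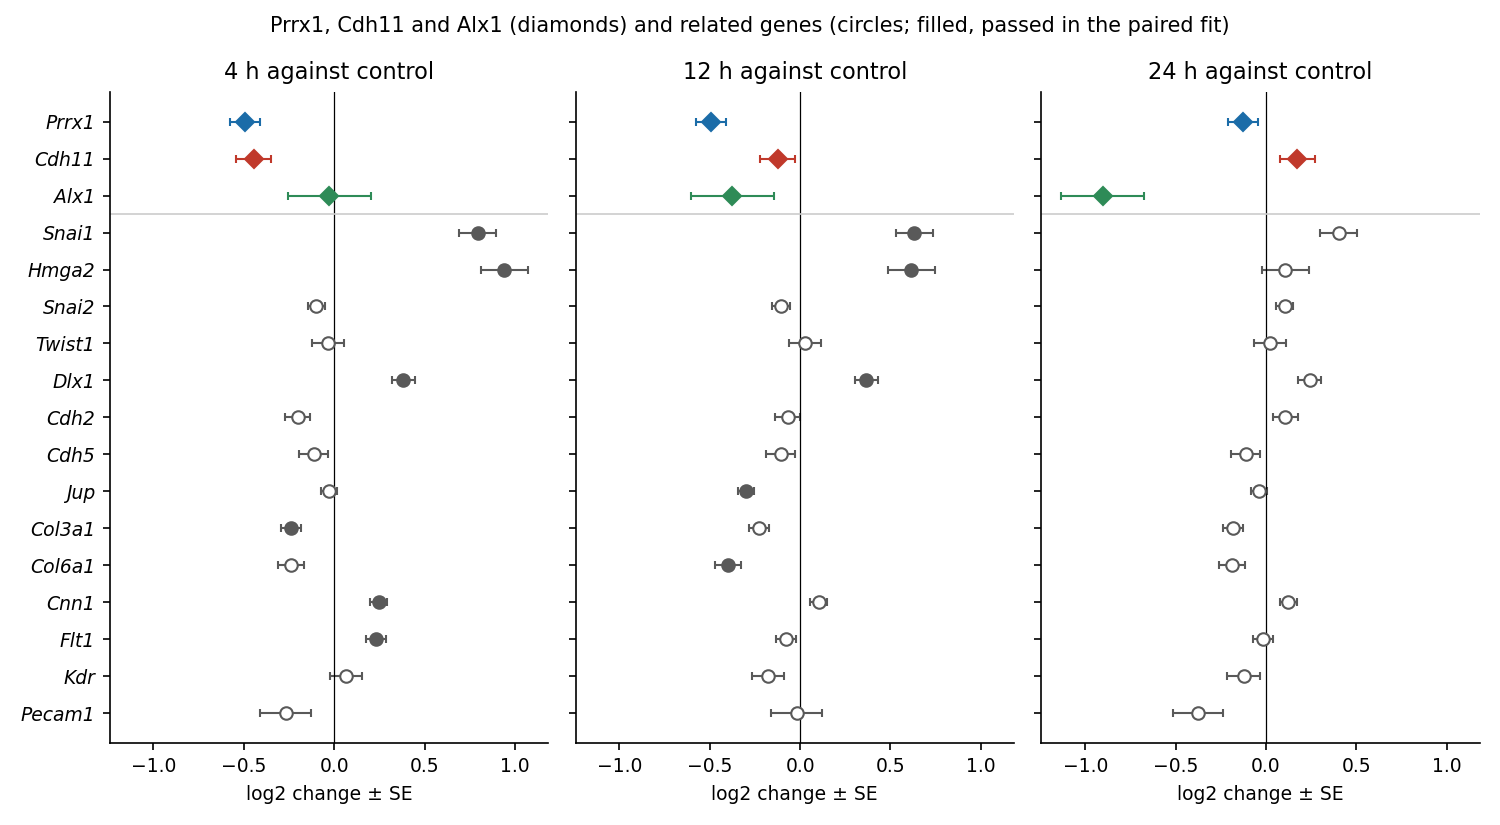
Log2 change against control with its SE from the paired fit (horizontal axes) at 4, 12 and 24 h, for Prrx1, Cdh11 and Alx1 (diamonds) and 14 related genes (circles, filled where the paired adjusted p was under 0.05). Snai1, Hmga2 and Dlx1 lie above 0 at 4 and 12 h where Prrx1 lies at -0.49 and -0.50, and no circle is filled at 24 h.

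Each of the 12 arrays was then left out in turn. The paired calls of Snai1, Hmga2 and Dlx1 at 4 h held in 12 of 12 cases each. The unpaired call of Hmga2 missed the threshold on leaving out control 1 (adjusted p 0.0765), control 2 (0.153), control 3 (0.0633), 4 h array 2 (0.141), 4 h array 3 (0.168) or 24 h array 2 (0.0571). The other paired calls were each lost in some of the 12 cases. Cnn1 was lost on leaving out control 2 (0.0737) or 4 h array 2 (0.072), and Jup on leaving out control 2 (0.0606), 12 h array 1 (0.0582) or 12 h array 2 (0.0669). Snai1 at 12 h was lost on leaving out control 1 (0.0509), control 2 (0.101), 12 h array 1 (0.0952) or 12 h array 2 (0.0841). For Dlx1 at 12 h the arrays were control 1 (0.0602), control 2 (0.0606) and 12 h arrays 1, 2 and 3 (0.114, 0.0662 and 0.0638), and for Col6a1 they were the same 5 (0.0601, 0.122, 0.121, 0.126 and 0.0705). Hmga2 at 12 h was lost on leaving out control 2 (0.175), control 3 (0.0703), 4 h array 3 (0.0579), any 12 h array (0.188, 0.215 and 0.0762) or any 24 h array (0.0757, 0.0712 and 0.0759), and after quantile normalization (0.0579). Flt1 and Col3a1 were each lost in 9 of 12 cases, with adjusted p up to 0.147 and 0.124. For Flt1 these were all 3 control and all 3 12 h arrays, 4 h arrays 2 and 3 and 24 h array 3. For Col3a1 they were all 3 of the 4 h and all 3 of the 12 h arrays, controls 2 and 3 and 24 h array 1. In paired fits of a single time and the controls, Snai1 at 4 and 12 h and Hmga2 at 4 h passed, while Dlx1 (adjusted p 0.0765), Cnn1 (0.18), Flt1 (0.208) and Col3a1 (0.191) at 4 h and Hmga2 (0.0841), Dlx1 (0.109), Jup (0.135) and Col6a1 (0.0664) at 12 h did not. Without pairing, Hmga2 at 4 h had an adjusted p of 0.167 in that fit and 0.688 in the methods' t-test. No called change turned its sign in these cases.

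The genes with the most similar pattern were ranked by Pearson r over the 12 arrays after each replicate number's mean was subtracted. For Prrx1 these were Snapin (r = 0.99), Wnk2 (0.97), Arnt (0.97), Dynlt3 (0.96) and Myo6 (0.95). The kinase gene Wnk2 came nearest in size, with mean changes of -0.43, -0.35 and -0.10 at 4, 12 and 24 h. The other 4 had changes between -0.22 and -0.12 at 4 h.

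For Cdh11 they were Dbnl (r = 0.97), Mindy2 (0.96), 1190007I07Rik (0.96), Spag7 (0.95) and Cpd (0.94). Mindy2, a deubiquitinase gene, had changes of -0.34, -0.17 and 0.13 at 4, 12 and 24 h. All 5 were below control at 4 h and above it at 24 h on the mean, like Cdh11, on which they were ranked.

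For Alx1 they were Flvcr2 (r = 0.93), Gsdmd (0.91), Zdhhc21 (0.91), 2510002D24Rik (0.91) and Lcp1 (0.90). Flvcr2, a membrane transporter gene, had changes of 0.09, -0.23 and -0.52 at 4, 12 and 24 h, and Lcp1, the leukocyte actin-bundling protein L-plastin, had changes of 0.04, -0.10 and -0.28. None of the 15 genes was shared between the 3 sets. This is no separate result. The 3 genes correlated with one another at r = 0.62, -0.14 and -0.68, and genes this close to 1 of them could not be as close to another. Without the subtraction, r of the 15 with their gene ran from 0.15 (Myo6) to 0.93 (Dynlt3). Without the subtraction, 2 of the 5 for Prrx1, 1 of the 5 for Cdh11 and 3 of the 5 for Alx1 were again among the first 5.

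**Figure D4:**
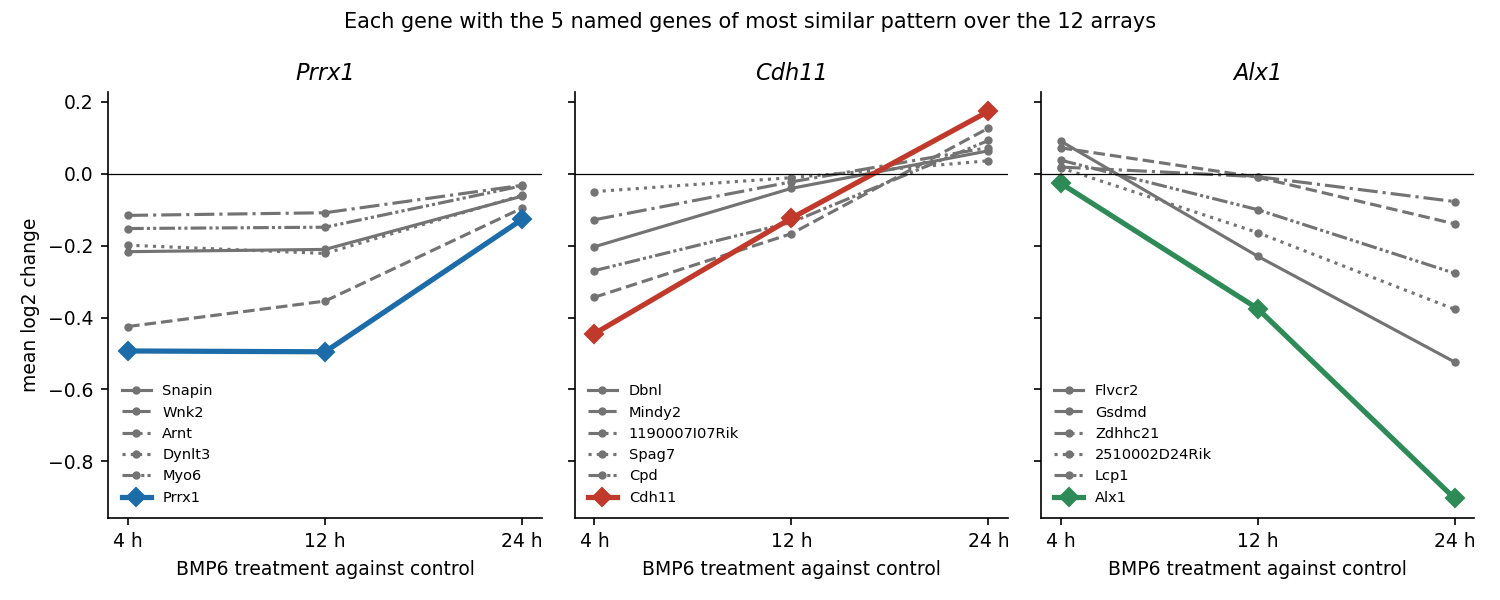
Mean log2 change against control (vertical axis) at 4, 12 and 24 h (evenly spaced) for each gene (coloured) and the 5 named genes of highest r with it (grey lines). The genes near Prrx1 are lowest at 4 and 12 h, those near Cdh11 lie between 0.04 and 0.13 at 24 h, and those near Alx1 between -0.52 and -0.08 at 24 h. These directions follow from the choice by r.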

How the data were processed

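The deposited values are log2 ratios as read here: the authors scanned 2-colour Agilent arrays, quantified the images and applied their own variant of quantile normalization, per the labels' design text. No source used here describes the background treatment or the filter that left 20280 rows, and without intensities no detection was judged. Array medians lay between -0.044 and 0.002 and correlations between arrays from 0.877 to 0.980. Precision is limited by having 3 arrays per group.

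Genes were named from a platform table of 11083 probe numbers, 10576 of them with 1 symbol, and symbols of 10548 were updated through RefSeq gene IDs. Probe numbers were read as filling a grid of 215 rows and 105 columns from the last column to the first, each from the bottom up, while the deposited values run along the grid's rows; this order was recovered from the data. With it, the first 2 probes of a gene correlated with r = 0.471 over 1831 genes, against 0.021 at the deposited row numbers. Every gene name rests on this order, and the 3 genes have 1 probe each, so none has a second probe to compare with.

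Probes of a gene were averaged, and limma 3.58.1 in R 4.3.3 (lmFit, eBayes, two-sided) was fitted to the 8267 genes and 12 arrays, with and without the replicate number as a block, and tested on simulated data. Same-numbered arrays of different groups deviated together in 18 of 18 cases (r from 0.446 to 0.756, other arrays -0.561 to 0.037), so the numbers taken from the titles pair the arrays; no label says what they share. Alternatives were median centring, quantile normalization, each array left out, single-time fits and the methods' t-test. The members and lists were chosen with earlier results of these data known. Named genes were the members, fixed relatives in the lists, list genes called at any time (at most 6 per list and time) and the 5 most similar genes per member.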

Additional observations from a re-analysis of the deposited data

Results flagged for a closer look

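Cdh11 was below control in 3 of 3 pairs at 4 h and at 12 h and above it in 3 of 3 pairs at 24 h, so its effect pointed in opposite ways at the earlier and the last time. The change at 24 h exceeded that at 4 h by 0.62 and that at 12 h by 0.30. These differences were not tested, because Cdh11 was chosen on these contrasts. Such splits were looked for only in the 3 genes and the named related genes, so how common they are over all genes is not given. Snai2 showed the same split, lower in 3 of 3 pairs at 4 h and 12 h and higher in 3 of 3 at 24 h. The changes of Snai2 were small, -0.10, -0.11 and 0.10, and did not pass against control at any time. Its change at 24 h exceeded that at 4 h by 0.20 (paired adjusted p 0.0443, unpaired 0.999) and that at 12 h by 0.21 (paired adjusted p 0.184).

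Other related genes differed between times in the paired limma fit and not in the unpaired one. Hmga2, Flt1 and Jup were named because they passed against control at 4 or 12 h. The comparisons between times reuse those arrays, which favours a difference for these genes, so their adjusted p-values are a description. The share of all named genes passing between times is not given, nor are fits with 1 array left out. The Hmga2 change was lower at 24 h than at 4 h by a log2 value of -0.84 (paired adjusted p 0.00802, unpaired 0.0556). The Cdh2 change was higher at 24 h than at 4 h by 0.31 (0.0338, unpaired 0.982). The Flt1 change was -0.31 at 12 h relative to 4 h (0.0385, unpaired 0.411) and -0.25 at 24 h relative to 4 h (0.0354, unpaired 0.353). The Jup change was -0.27 at 12 h relative to 4 h (0.0268, unpaired 0.411).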

How the results depend on the processing

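Centring and quantile normalization moved each of the 9 member changes by less than the spread between replicates. On leaving out single arrays without pairing, the Prrx1 change ranged from -0.63 to -0.37 at 4 h, from -0.63 to -0.37 at 12 h and from -0.26 to -0.0038 at 24 h. Cdh11 ranged from -0.68 to -0.31 at 4 h, from -0.29 to 0.0193 at 12 h and from 0.0057 to 0.31 at 24 h. Its 12 h change lay above 0 without control replicate 1 (0.008) or 12 h replicate 2 (0.0193). These fits left replicate numbers unbalanced between the groups, and all 3 same-numbered pairs of Cdh11 were lower at 12 h (-0.157, -0.076 and -0.139). Alx1 ranged from -0.18 to 0.28 at 4 h, -0.49 to -0.28 at 12 h and -1.03 to -0.81 at 24 h. The number of genes called at 4, 12 and 24 h was 14, 0 and 0 unpaired and 498, 156 and 14 with the replicate block. Quantile normalization gave 35 and 1 at 4 and 12 h, centring 23 at 4 h, and the fit of 4 h and control arrays alone 0. The methods' t-test called 474, 297 and 175 genes unadjusted, and 0, 1 and 0 after adjustment. With 1 array left out the unpaired counts ran from 3 to 51 at 4 h (51 without 4 h replicate 1, 9 without 24 h replicate 2, 3 or 4 without control 1, control 2 or 4 h replicate 2 or 3) and from 0 to 1 at 12 h. Of the 63 list genes, 6, 5 and 0 were called with the replicate block at the 3 times, and at 4 h 2 after quantile normalization and 0 to 2 with 1 array left out, against 1 unpaired. Single probes were not run, since each member has 1.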
